A study of Mus musculus with 6 samples.

Results

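PC iPSC 5 is 1 of 4 mouse induced pluripotent stem cell (iPSC) lines in a series of 6 RNA sequencing libraries. It was picked out because genes of chromosome 11 ran higher in it than in the other lines, so the height of that chromosome is the reason for the choice and not a result. What follows sets this 1 library against the 3 other lines, control iPSC 3, control iPSC 7 and PC iPSC 13, over the 13490 genes with a mean of at least 1 CPM, reads scaled to the library total, across the 4 lines, out of 19330 in the table. PC stands for palmitoylcarnitine, and the PC lines are labelled as palmitoylcarnitine-induced. Control lines carry no such label. The remaining libraries are 1 of embryonic stem cells (ESC), titled B6, and 1 of mouse embryonic fibroblasts (MEF). All iPSC and ESC were kept on mitomycin-treated fibroblast feeders in serum medium with leukemia inhibitory factor, so feeder RNA can be present in each. For the iPSC lines the labels used here give no strain, sex, passage, reprogramming method or dose of palmitoylcarnitine. Nothing in the labels says whether libraries came from separate cultures.

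With 1 library on one side, chosen by values of the same contrast, no test was possible and none is given. Each difference is the log2 CPM of PC iPSC 5 minus the mean of the other 3 lines, scaled between libraries by TMM (trimmed mean of M-values), and the spread of those 3 lines is its only error. A gene is called apart where PC iPSC 5 lay outside the range of the other 3 and at least 1.5-fold from their mean. Levels of single genes are in RPKM, reads per kilobase of gene scaled to the library total. Depth was even, at 26.51 to 27.99 M (1e6) assigned reads per library. Reads were found for 17463 genes in PC iPSC 5, against 17234 to 17347 in the other 3 lines. Control iPSC 3 stood apart from the other lines in fibroblast and interferon genes, and calls that were lost without it are named beside the results. In 2-cell-like genes control iPSC 3 and PC iPSC 5 both had low medians. The MEF library held Pou5f1 at 158, Sox2 at 88.2 and Klf4 at 124 RPKM, but Nanog at 0.0482.

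Palmitoylcarnitine is the carnitine ester in which palmitate crosses the inner mitochondrial membrane before it is oxidized. Mouse pluripotent cells held with leukemia inhibitory factor express a network led by Pou5f1, Sox2 and Nanog, and keep most germ cell, trophoblast and 2-cell embryo genes low or restricted to few cells. RNA alone was measured here, and DNA copy number was not analysed.

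The difference covered chromosome 11 from end to end. Its 1126 kept genes had a median log2 difference of 0.42, or 1.34-fold, and 1044 of them, or 92.7%, were higher in PC iPSC 5. The 10th and 90th percentiles of the genes were 0.07 and 0.82. Over all 13490 genes, 7.42% were called apart higher and 3.48% lower. Called apart on this chromosome were 277 higher genes, or 24.6% of the chromosome, and 8 lower genes, or 0.71%. These counts come from the contrast by which the line was chosen, and nothing is read from them. The chromosome took 12.7% of the reads in PC iPSC 5, 9.57%, 9.69% and 9.66% in control iPSC 3, control iPSC 7 and PC iPSC 13, 12.5% in ESC and 9.50% in MEF. ESC had a chromosome 11 median of 0.43 from the same 3 lines. ESC and PC iPSC 5 are measured from shared libraries, so their values are given side by side only.

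**Figure D1:**
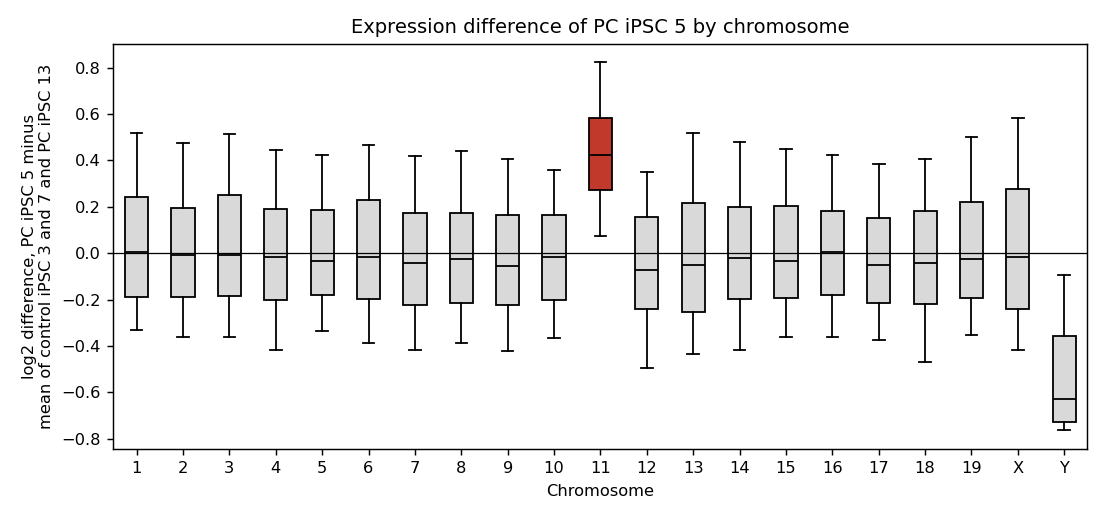
Log2 difference of PC iPSC 5 from the mean of control iPSC 3, control iPSC 7 and PC iPSC 13 (vertical axis) for the kept genes of each chromosome (horizontal axis). Boxes span the quartiles, the line is the median and whiskers reach the 10th and 90th percentiles. The chromosome 11 median is 0.42, the 18 other autosomes lie between -0.07 and 0.01, X at -0.02, and Y, with 7 genes, at -0.63.

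Cut into 45 windows of 25 or 26 neighbouring genes, chromosome 11 had window medians of 0.26 to 0.57 in PC iPSC 5, and all 45 were above 0.2. The lowest window ran from Nlrp1a to P2rx5 and the highest, at 0.57, began at Slc22a5. In the other 3 lines the window medians stayed between -0.12 and 0.08. ESC was more uneven along the chromosome, from -0.25 to 0.71, with 41 of 45 windows above 0.2. On the other chromosomes 7 of 484 windows exceeded 0.2 in PC iPSC 5.

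**Figure D2:**
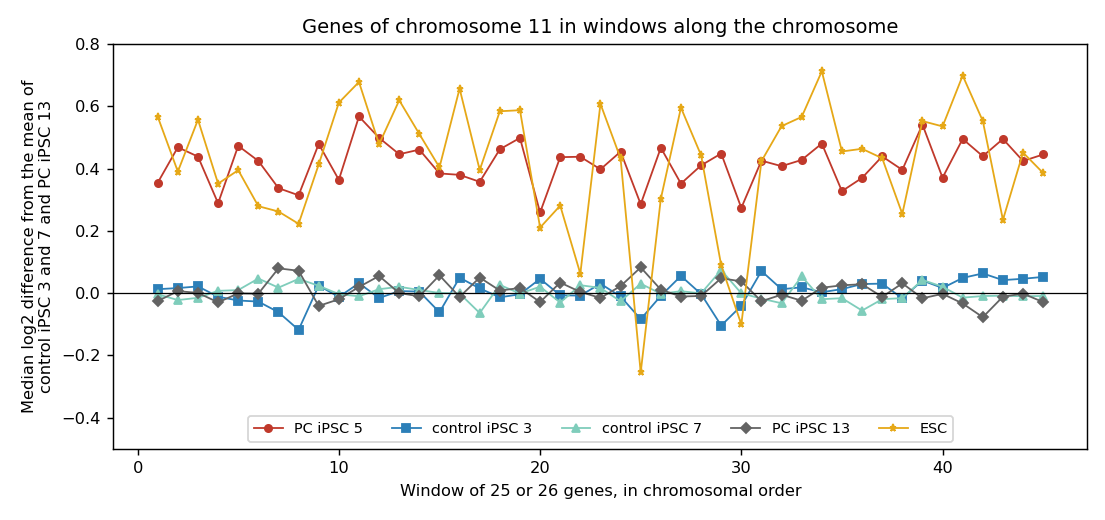
Median log2 difference from the mean of control iPSC 3, control iPSC 7 and PC iPSC 13 (vertical axis) in 45 windows of 25 or 26 genes in order along chromosome 11 (horizontal axis), for the 4 iPSC lines and ESC. PC iPSC 5 stays between 0.26 and 0.57 and the 3 other lines between -0.12 and 0.08, while ESC ranges from -0.25 to 0.71.

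The size of the difference varied with expression level. Kept genes were split into 4 expression classes of equal size by mean CPM. In the lowest class the chromosome 11 median was 0.55, followed by 0.45, 0.43 and 0.38 in the highest class. On the other chromosomes the same classes had medians of 0.11, 0.02, -0.03 and -0.10. In the highest class off chromosome 11, 30.0% of genes were higher in PC iPSC 5, against 59.0% in the lowest. This slope accompanies every list of strongly or weakly expressed genes below, and its part in their values was not tested.

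Complexes whose subunits are spread over the genome had members on both sides of this divide. All 7 kept genes of the cytosolic ribosome on chromosome 11 were higher in PC iPSC 5, with a median of 0.28. None of the 71 members on other chromosomes was higher, and their median was -0.26, from -0.61 for Rps29 to -0.01 for Rps23. One member lay above 0 with library totals, TMM factors from the other chromosomes, DESeq2 size factors, RPKM, no filter or a mean CPM of at least 5, and without PC iPSC 13. Rpl23a, a protein of the large subunit encoded on chromosome 11, stood at 3246 RPKM in PC iPSC 5 and at 2518, 2756 and 2566 in control iPSC 3, control iPSC 7 and PC iPSC 13. Rpl37a, a large-subunit protein encoded on chromosome 1, stood at 380.2 against 616, 543 and 512. Both genes had PC iPSC 5 outside the range of the other 3, on opposite sides. Rpl37a and Rps29 were the 2 called lower, and both lost the call with library totals as the scale, with TMM factors from the other chromosomes, on RPKM and without control iPSC 3. The ribosomal genes are nearly all in the highest expression class, whose median off chromosome 11 was -0.10.

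For the proteasome, which degrades ubiquitin-tagged proteins, 8 subunits and activators on chromosome 11 had a median of 0.47 and 35 members elsewhere -0.06. Psmb6, a catalytic-core subunit on chromosome 11, read 296 RPKM in PC iPSC 5 against 191, 197 and 183 in the same order of lines. Psmd12, a lid subunit of the regulatory particle, read 110.2 against 71.2, 70.7 and 69.5. The range of the other 3 lines was narrow for both. Mitochondrial ribosomal genes had medians of 0.44 (10 genes on chromosome 11) and -0.07 (66 elsewhere), and nuclear genes of oxidative phosphorylation 0.37 (4) and -0.12 (73). DNA repair genes had medians of 0.30 (10) and -0.19 (56), and DNA and histone modifiers 0.42 (13) and -0.18 (60). Suz12, a core subunit of Polycomb repressive complex 2 on chromosome 11, stood at 151 RPKM against 82.9, 92.8 and 88.4.

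**Figure D3:**
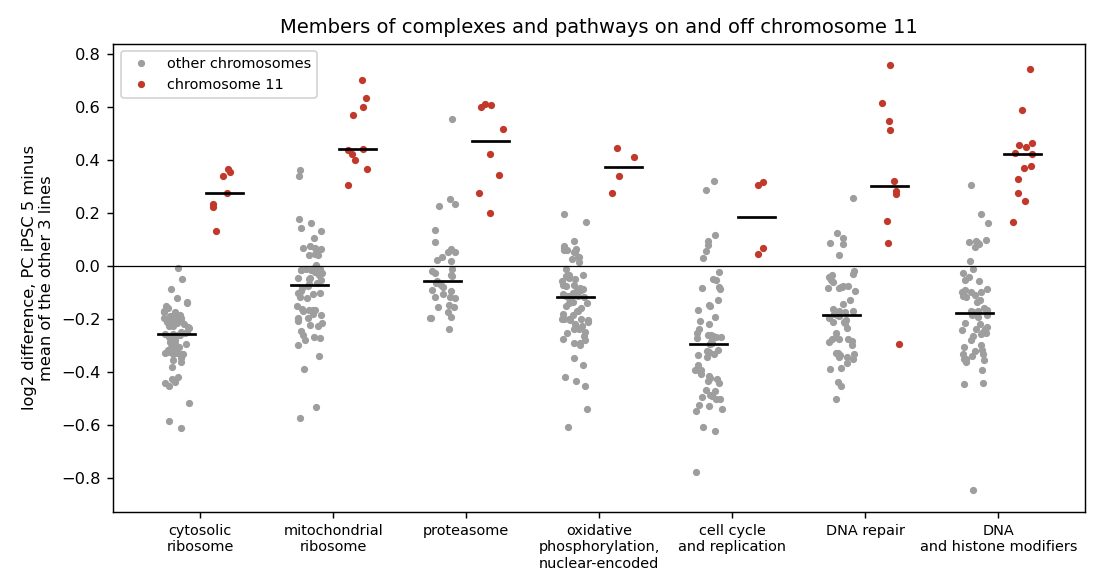
Log2 difference of PC iPSC 5 from the mean of the other 3 lines (vertical axis) for members of 7 complexes and pathways (horizontal axis), with members off chromosome 11 in grey and on it in red. Each point is 1 gene and bars are medians. For the cytosolic ribosome the medians are -0.26 and 0.28, for the proteasome -0.06 and 0.47.

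Some chromosome 11 genes did not follow the rest. Of the 1126, 82 were not higher in PC iPSC 5, and 38 lay below all 3 other lines. Grb10, an imprinted adaptor protein that dampens insulin and growth factor signalling (chromosome 11, 11930499 to 12037428), stood at 34.9 RPKM in PC iPSC 5 against 74.1, 78.2 and 73.6, a log2 difference of -1.15 or 2.21-fold lower. ESC stood at 51.1. Its neighbour Ddc, aromatic amino acid decarboxylase (11814101 to 11898144), also imprinted, stood at 6.36 against 2.75, 2.45 and 1.72, a difference of 1.44. The adjacent pair therefore lay on opposite sides of the other 3 lines. Cobl, a further gene of that domain, stood at 25.8 against 33.2, 27.0 and 24.0, within their range. Atp2a3, a calcium pump of the endoplasmic reticulum, had 5.41 against 15.1, 12.4 and 14.9, a difference of -1.41. Myl4 and Slfn9, a myosin light chain and a Schlafen family gene, were lower by less, at -0.75 and -0.71. The 8 kept genes of the Hoxb cluster, which patterns the body axis, had a median of -0.02, with levels at or under 6.84 RPKM in PC iPSC 5. Their medians in control iPSC 3, control iPSC 7 and PC iPSC 13 were -0.40, 0.20 and 0.19, so PC iPSC 5 lay inside a wide range. Of the 8, 7 were in the lowest expression class, and 0 were called.

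At the upper end of chromosome 11 stood Krt14, a basal keratin, at 2.68 RPKM against 0.41, 0.494 and 0.132 (log2 difference 2.93), and Sept4, a septin, at 2.16 against 0.399, 0.963 and 0.214 (2.14). Krt14 read 29.9 in MEF. Tex19.2, a germline and placental gene, stood at 9.19 against 1.89, 2.91 and 2.09 (1.97). Tbx21, Cpsf4l, Tns4 and Nlrp3 followed with differences of 1.74, 1.66, 1.65 and 1.64, all at or below 1.79 RPKM in PC iPSC 5. These leading genes all stood under 10 RPKM in each of the 4 lines.

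The request for this line named 4 markers, 3 of them on chromosome 11. Slc22a5, the plasma membrane carnitine transporter OCTN2 (chromosome 11, 53864542 to 53891796), stood 2.47-fold above the mean of the other lines, a log2 difference of 1.30. Acadvl, the very-long-chain acyl-CoA dehydrogenase that starts mitochondrial oxidation of long fatty acids (70010183 to 70015428), stood 1.68-fold above, at 0.75. Inca1, a CDK-binding cell cycle inhibitor (70688361 to 70700285), rested on 177 reads against 21, 48 and 55, or 4.88 RPKM against 0.581, 1.38 and 1.55. The SD of the 3 other lines was 0.74 on the log2 scale for Inca1, and 0.18 and 0.11 for Slc22a5 and Acadvl. Beside the chromosome median of 0.42, the differences of Slc22a5 and Inca1 were above the 90th percentile of 0.82, and that of Acadvl was below it. The markers were chosen with earlier results of these data known, so nothing is read from their place among the genes.

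Of the remaining fatty acid oxidation genes on chromosome 11, Acsl6, an acyl-CoA synthetase, was at 2.09 against 1.47, 1.36 and 0.652 (0.88), a call lost without PC iPSC 13. Slc22a21, a further carnitine transporter beside Slc22a5, had a difference of 0.57 and was not called. The 5 list members on the chromosome, the markers Slc22a5 and Acadvl among them, had a median of 0.75, which is the value of Acadvl. The median of all kept genes of the chromosome was 0.42. Since markers and line were chosen with earlier results of these data known, nothing is read from the list median. The 45 list members on other chromosomes had a median of 0.07. Called higher was 1, the coactivator Ppargc1b, and lower 1, the thioesterase Acot2, each 2.22%. Of all genes there, 5.86% were called higher and 3.73% lower. Acot2 stood at 1.17 RPKM against 2.19, 2.27 and 2.38. Cpt1a, which makes palmitoylcarnitine at the outer mitochondrial membrane, was within the range of the other lines, at 37.7 against 40.8, 35.8 and 38.6.

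Off chromosome 11, 724 of 12364 genes were called higher in PC iPSC 5, or 5.86%, and 461 lower, or 3.73%, together 9.58%. The median of all these genes was -0.03, and the 10th and 90th percentiles were -0.39 and 0.45. Calls were spread over the genome, with 3.98% to 9.64% of genes called higher and 2.01% to 6.71% lower on each autosome and X. Most sat among weak genes, since 492 of the 724 higher and 259 of the 461 lower were in the lowest expression class. Both counts depended on which line they were set against, and ran from 589 to 1046 higher and from 509 to 528 lower when one of the other 3 lines was left out. Without control iPSC 3, 500 of the 724 higher and 383 of the 461 lower genes kept their call.

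**Figure D4:**
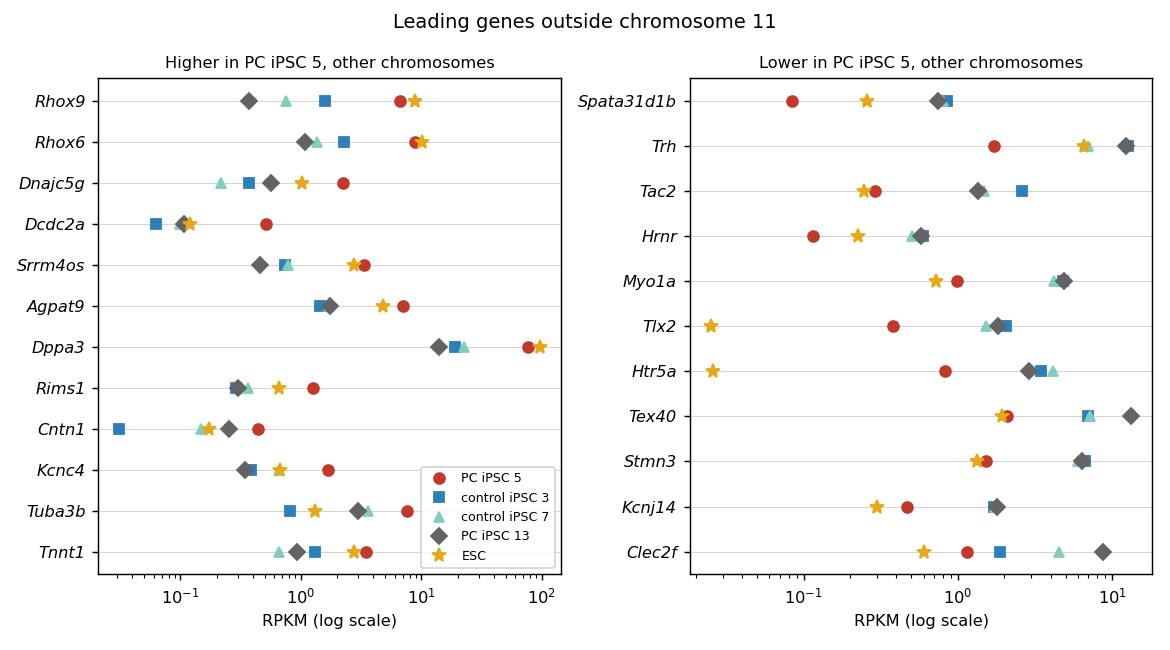
RPKM on a log axis (horizontal) of 12 higher and 11 lower genes among those with the largest log2 difference off chromosome 11 (vertical), in the 4 iPSC lines and ESC. In every row PC iPSC 5 lies outside the other 3 lines, because the rule of the call requires it. Most of these genes lie under 10 RPKM, with Dppa3 at 76.7 the strongest.

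Agpat9, also called Gpat3, the fourth marker and a glycerol-3-phosphate acyltransferase of triglyceride synthesis (chromosome 5, 100845665 to 100899102), stood at 7.03 RPKM in PC iPSC 5 against 1.43, 1.72 and 1.75, and at 4.82 in ESC. The difference was 2.05, with an SD of 0.17 among the other 3 lines. Of 40 fatty acid and glycerolipid synthesis genes off chromosome 11, 4 were called higher, or 10.0%, and 2 lower, or 5%. Among all genes there the shares were 5.86% and 3.73%. The list median was 0.05. Gpat2, a mitochondrial acyltransferase of the testis, stood at 18.2 against 8.64, 9.26 and 9.74. Mlxipl, the carbohydrate-responsive factor ChREBP, stood at 2.86 against 0.963, 1.5 and 2.17. Pnpla3, a lipase-related gene, was lower, at 3.19 against 5.36, 4.91 and 5.82. Cholesterol synthesis had 0 of 24 genes called either way and a median of 0.08.

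Germ cell and meiosis genes had 22 of 58 members off chromosome 11 called higher, or 37.9%, beside 5.86% of all genes there. Called lower were 4, or 6.90%, beside 3.73%. The count called higher was the largest of any list, but the share of trophoblast genes was larger, at 57.1%. The median was 0.36 in PC iPSC 5 and -0.06, 0.11 and -0.04 in control iPSC 3, control iPSC 7 and PC iPSC 13. Of the 58, 24 are in the lowest expression class, where 15.9% of all genes off chromosome 11 were called higher. Leaving out any of the other 3 lines gave 22 to 25 members higher. Members beyond the 4 largest are named here after their values were seen.

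Dppa3, or Stella, a maternal and germ cell factor that guards DNA methylation in the zygote (chromosome 6, 122626424 to 122630271), stood at 76.7 RPKM in PC iPSC 5 against 18.8, 22.6 and 13.9, and at 96.5 in ESC. Its difference was 2.04, or 4.12-fold, with an SD of 0.36. The X-linked homeobox genes Rhox9 and Rhox6 stood at 6.67 against 1.57, 0.756 and 0.369, and at 8.84 against 2.26, 1.37 and 1.09. Rhox genes are a cluster of close relatives, so the split of reads among them is uncertain. Dazl, an RNA-binding protein of germ cell commitment, stood at 75.2 against 23.7, 38.9 and 29.8 (1.28), with ESC at 7.02. By the rule of the call PC iPSC 5 was the highest of the 4 lines for all of these. ESC was above PC iPSC 5 for Dppa3 and both Rhox genes and below it for Dazl.

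Smc1b, the meiotic SMC1 subunit, stood at 5.95 against 1.41, 2.28 and 1.66 (1.72), and Rec8, the meiotic kleisin, at 28.2 against 12.02, 10.3 and 11.1 (1.30). Other genes of meiotic chromosomes in the list were not called, among them the synaptonemal complex genes Sycp1, Sycp2 and Sycp3, the cohesin subunit Stag3, Hormad1, Msh4 and the recombinase Dmc1, with differences of 0.50 for Sycp1 to -0.16 for Dmc1. Fkbp6, needed for synapsis and piRNA biogenesis, stood at 20.8 against 6.31, 8.21 and 7.13 (1.49). Ddx4, the Vasa helicase, stood at 8.79 against 3.38, 4.62 and 2.76 (1.28), and was at 8.77 in ESC. The near-identical testis tubulins Tuba3a and Tuba3b stood at 44.3 against 13.9, 17.8 and 15.8, and at 7.52 against 0.806, 3.60 and 2.97, with the split between them uncertain. Slc25a31 lost its call without control iPSC 3 and Mael without PC iPSC 13. Lower members were Rpl10l, a testis ribosomal protein copy, at 26.6 against 33.5, 46.2 and 72.2, with Mageb4, Rhox13 and Piwil1. Rhox13 and Piwil1 lost their calls with library totals as the scale, with TMM factors from the other chromosomes and without PC iPSC 13, and Rhox13 also on RPKM and without control iPSC 7. The lower count was 2 with library totals. The germ cell genes did not all lie on one side, with 39 of 58 above and 19 below the mean of the other lines.

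Germ cell promoters often hold many CpG sites and a pair of short motifs, the E-box CACGTG and the E2F-type motif TTCCCGC, that are known binding sequences of repressor complexes in mouse stem cells. They are printed for 4 of the higher genes, as RefSeq sequence of GRCm38.p6 from 250 bases before to 50 after the annotated start, written 5′ to 3′ along the gene. Capitals mark CACGTG and TTCCCGC on either strand, the second reading GCGGGAA when reversed. Ddx4 holds both motifs, Fkbp6 only CACGTG, marked more than once, Smc1b only TTCCCGC, and Dazl neither.
Ddx4, chr13:112652261-112652560, minus strand: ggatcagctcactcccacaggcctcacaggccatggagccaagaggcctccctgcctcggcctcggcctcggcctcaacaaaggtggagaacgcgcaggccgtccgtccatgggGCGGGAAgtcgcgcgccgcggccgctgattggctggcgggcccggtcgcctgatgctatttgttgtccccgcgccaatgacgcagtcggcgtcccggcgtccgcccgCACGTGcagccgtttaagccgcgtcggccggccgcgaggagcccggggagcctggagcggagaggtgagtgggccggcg
Fkbp6, chr5:135349864-135350163, minus strand: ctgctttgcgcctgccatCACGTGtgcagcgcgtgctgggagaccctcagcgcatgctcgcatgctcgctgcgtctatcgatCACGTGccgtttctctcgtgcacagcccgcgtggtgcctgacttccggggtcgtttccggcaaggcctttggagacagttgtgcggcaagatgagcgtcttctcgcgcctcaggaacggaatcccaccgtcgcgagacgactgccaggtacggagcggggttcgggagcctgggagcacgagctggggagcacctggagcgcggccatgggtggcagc
Smc1b, chr15:85131908-85132207, minus strand: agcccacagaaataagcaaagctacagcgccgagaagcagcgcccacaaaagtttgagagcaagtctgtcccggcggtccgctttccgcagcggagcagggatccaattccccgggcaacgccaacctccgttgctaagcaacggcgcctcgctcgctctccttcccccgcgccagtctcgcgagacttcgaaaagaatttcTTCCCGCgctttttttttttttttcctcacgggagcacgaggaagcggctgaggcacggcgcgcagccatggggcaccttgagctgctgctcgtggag
Dazl, chr17:50293571-50293870, minus strand: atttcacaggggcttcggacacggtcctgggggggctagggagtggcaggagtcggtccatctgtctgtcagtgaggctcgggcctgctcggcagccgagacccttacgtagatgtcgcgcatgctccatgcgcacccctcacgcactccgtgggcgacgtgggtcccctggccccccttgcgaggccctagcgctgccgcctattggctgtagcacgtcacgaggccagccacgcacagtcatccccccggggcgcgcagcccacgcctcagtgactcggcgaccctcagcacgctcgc

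Among the 58 kept members off chromosome 11, 49 had a promoter in the RefSeq table. CACGTG lay in 34.7% of these 49 and TTCCCGC in 26.5%, against 11.9% and 9.89% of the kept genes with a promoter and 7.15% and 4.60% of all 32851 promoters. CACGTG was in 6 of 18 called higher and in 10 of 27 not called, and TTCCCGC in 6 of 18 and 6 of 27. Members called higher had a median of 19.75 CpG in 300 bases and members not called 18, beside 20 over all kept genes. The motifs were searched on both strands as exact matches, and a match is a description of these letters only.

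Pluripotency genes were present in PC iPSC 5, with differences among them. Pou5f1, the octamer-binding factor, stood at 401 RPKM against 531, 487 and 517 (-0.39), and Nanog at 473 against 388, 394 and 401 (0.22). Sox2, at 155 against 179.7, 153 and 160.3, lay within the range of the other lines, and Klf4 was at 70.9 against 96.5, 95.4 and 91.5 (-0.45). None of these 4 passed 1.5-fold. Summed over 7 pluripotency markers the level was 3630 against 4736, 4271 and 4209 RPKM, and 4894 in ESC. Of 37 naive and general pluripotency genes off chromosome 11, 1 was called higher, Dppa3, or 2.70%, and 4 lower, or 10.8%. Among all genes there the shares were 5.86% and 3.73%. The list median was -0.16. Lin28a, the RNA-binding protein that blocks let-7 maturation, stood at 13.5 against 40.0, 30.6 and 35.6, or 2.68-fold lower, with ESC at 26.9. It was well outside the other 3 lines. Tcl1, a cofactor of Akt, was at 31.0 against 54.4, 47.3 and 52.7 (-0.77).

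The list of WNT, BMP, FGF and Nodal genes had 2 of 41 members off chromosome 11 called higher, Wnt4 and Wnt5a, or 4.88%. Called lower were 5, or 12.2%, beside 5.86% higher and 3.73% lower among all genes there. The median was -0.01, with 20 of 41 above the mean of the other lines. The lower count was 3 with library totals as the scale and 2 without control iPSC 3. Lefty1, an inhibitor that Nodal itself induces, stood at 1.45 RPKM against 3.95, 3.74 and 6.74 (-1.69), and Lefty2 at 11.5 against 28.0, 15.8 and 73.7 (-1.51). The spread of Lefty2 among the other 3 lines was wide. Nodal stood at 28.9 against 47.2, 39.7 and 41.6 (-0.60), and its coreceptor Tdgf1, or Cripto, at 163 against 283, 224 and 228 (-0.62). Both were close to 1.5-fold and lost the call with library totals as the scale, with TMM factors from the other chromosomes, on RPKM and without control iPSC 3, and Nodal also at a mean CPM of at least 5. Wnt5a and the lower member Spry2 also lost their calls without control iPSC 3.

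In the list of primed pluripotency and early lineage genes 2 of 15 were called higher, or 13.3%, and 4 lower, or 26.7%. Among all genes off chromosome 11 the shares were 5.86% and 3.73%. The list median was 0.09. Dnmt3b, the de novo DNA methyltransferase, stood at 13.4 RPKM against 24.97, 22.5 and 23.2, or 1.8-fold lower, and at 11.4 in ESC. It was the only one of 60 DNA and histone modifiers off chromosome 11 called apart. Zic2 and Zic5, neighbouring zinc finger genes on chromosome 14, were higher, at 8.51 against 3.23, 1.55 and 4.38, and at 4.13 against 2.04, 1.03 and 2.41. They lie in one of the windows with the highest median off chromosome 11, at 0.35, where control iPSC 7 had a median of -0.54. Myc stood at 24.2 against 33.1, 37.2 and 57.4 (-0.81), a call lost without PC iPSC 13.

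Of 14 trophoblast genes off chromosome 11, 8 were called higher, or 57.1%, beside 5.86% of all genes there, and 0 lower, with a median of 0.74. Of the 14, 9 are in the lowest expression class, where 15.9% were called higher. The other lines had medians of 0.16, -0.07 and -0.17, and ESC had 1.28 from the same 3 lines, above PC iPSC 5. Called higher were 8 or 9 members whichever line was left out. Krt18, a simple epithelial keratin, stood at 42.7 RPKM against 14.6, 15.2 and 11.8, and its partner Krt8 at 36.1 against 22.1, 18.6 and 23.3. ESC had 47.5 and 38.0. Esx1, a placental homeobox gene on X, stood at 9.83 against 3.97, 2.99 and 3.33, and Wnt7b at 1.20 against 0.32, 0.301 and 0.388. Tfap2c, shared by trophoblast and germ cells, was at 19.11 against 12.2, 8.98 and 8.75. Hand1, a trophoblast and mesoderm factor on chromosome 11, stood at 1.41 against 0.42, 0.457 and 0.776. Gata3 lost its call without control iPSC 3. Krt8 and Krt18 also count among 4 of 28 epithelial adhesion genes called higher, or 14.3%, and 4 of 13 ectoderm and neural genes, or 30.8%. The other 2 ectoderm and neural genes were Nefl, a neurofilament, at 7.65 against 3.74, 3.75 and 1.79, and Nes.

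Genes of the 2-cell-like state, which mark the rare cells that resemble the 2-cell embryo, had low list medians in PC iPSC 5 and in control iPSC 3. In PC iPSC 5 11 of 27 members, or 40.7%, were called lower, beside 3.73% of all genes off chromosome 11. Below the mean of the other lines lay 26, and the median was -0.64. Of the 27, 15 are in the lowest expression class, where 8.35% of genes off chromosome 11 were called lower, and 11 in the second, with 3.53%. The medians were -0.75 in control iPSC 3, 0.35 in control iPSC 7 and 0.42 in PC iPSC 13. The list median of PC iPSC 5 lay near that of control iPSC 3. The 11 called members lay below all 3 lines by the rule of the call, so this does not set the 2 lines apart. Their gap from control iPSC 3 varied, with Pramef25 at 4.61 against 4.96 RPKM and Tdpoz2 at 0.504 against 0.822. Zfp352, a 2-cell zinc finger gene, stood at 3.61 RPKM against 4.74, 10.8 and 10.1. Tcstv1 was at 4.94 against 5.42, 11.2 and 11.9, and Dux, the factor that switches this program on, at 1.19 against 1.52, 2.37 and 3.40. In ESC they stood at 0.095, 0.409 and 0.336. Many of these genes, among them Tdpoz2, Tdpoz4 and Pramef25, belong to families of near-identical copies, so their counts are uncertain. Without control iPSC 3, 21 of 27 were called lower, at a median of -0.97.

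Imprinted genes, which are expressed from 1 parental allele, had 8 of 41 members off chromosome 11 called higher, or 19.5%, beside 5.86% of all genes there, 1 lower and a median of 0.26. The counts were 8 and 1 whichever other line was left out, but the members differed, since H19 lost its call without control iPSC 3 and Cdkn1c without PC iPSC 13, and the median was 0.11 without control iPSC 3. Peg10, a paternally expressed placental gene on chromosome 6 (4747306 to 4760517), stood at 15.9 RPKM against 7.98, 5.33 and 4.25, and at 21.1 in ESC. Zdbf2 was at 3.03 against 1.44, 1.26 and 1.14, and Impact at 28.9 against 15.1, 16.3 and 16.3. Their values in the other lines were close together. Usp29, a paternally expressed deubiquitinase gene, was at 0.359 against 0.173, 0.125 and 0.0586. H19, a maternally expressed noncoding RNA, was at 127 against 48.5, 80.1 and 92.2 and at 1201 in MEF. Zrsr1, a paternally expressed gene on chromosome 11, stood at 10.6 against 6.15, 5.01 and 5.46 (0.90), and its host domain gene Commd1 at 101 against 72.2, 67.0 and 68.9 (0.51).

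Y-linked genes were present in all 4 lines. Summed over 12 genes they stood at 134.0 CPM against 165.4, 223.5 and 191.3, and at 57.0 in ESC and 294.8 in MEF. Ddx3y, a helicase, stood at 8.01 RPKM against 12.2, 15.7 and 13.5, and Eif2s3y, a translation initiation subunit, at 18.6 against 26.3, 33.5 and 28.7. Uty was at 3.08 against 4.38, 5.06 and 4.53, and Zfy1 at 3.10 against 3.20, 7.46 and 5.66. Both calls were lost without control iPSC 7, and that of Uty also on RPKM. Not every Y gene was lower, since Uba1y stood at 5.82 against 4.77, 5.78 and 4.16. In bulk RNA, fewer cells carrying a transcript and less of it per cell cannot be told apart. The part of feeder RNA in the Y-linked values was not tested. On X, Ftx, a noncoding gene of the X inactivation center, was at 0.132 against 0.462, 0.249 and 0.512, while Xist was at 6.95 against 4.17, 6.64 and 5.39.

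Redox genes had 6 of 33 members off chromosome 11 called higher, or 18.2%, beside 5.86% of all genes there, 0 lower and a median of 0.09. Gss, glutathione synthetase, stood at 39.4 RPKM against 17.1, 20.1 and 16.4 (1.11), and Nqo1, a quinone reductase, at 33.6 against 18.2, 17.1 and 15.1 (0.96). The other 3 lines lay well below PC iPSC 5 for both. Gstp1, a glutathione transferase, was at 94.9 against 60.6, 59.5 and 54.7. Mt2, a metallothionein, was at 300.2 against 242, 127 and 81, with the other lines far apart. Srxn1 and Gsr completed the 6 and lost their calls without control iPSC 3 and PC iPSC 13 respectively. Ak4, an adenylate kinase of the hypoxia list, stood at 67.3 against 31.9, 29.0 and 30.7, while that list had 1 of 27 called higher and 1 lower. Ldhb, lactate dehydrogenase B, stood at 150 against 102, 66.2 and 46.5, and was the 1 higher of 29 glycolysis genes, Pdk1 being the 1 lower. Pdk1 lost its call with library totals as the scale, with TMM factors from the other chromosomes, on RPKM and without PC iPSC 13. All 25 genes of the tricarboxylic acid cycle off chromosome 11 were uncalled.

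Cell cycle and replication genes had a median of -0.30 over 63 genes off chromosome 11, and 56 of them were below the mean of the other lines. Only 3 were called lower, E2f2, Mad2l1 and Pola1, or 4.76%, near the 3.73% of all genes off chromosome 11. E2f2, an activating E2F factor, stood at 0.712 RPKM against 1.25, 1.14 and 1.20, and Mcm2, a helicase subunit that was not called, at 104 against 144, 120.1 and 119. Pola1 and Mad2l1 lost their calls without control iPSC 3 and on RPKM, and Mad2l1 also with library totals as the scale and with TMM factors from the other chromosomes. Of the 63, 44 are in the highest expression class. The 35 p53 targets and cell cycle inhibitors off chromosome 11 had 3 called higher, or 8.57%, beside 5.86% of all genes there. Called lower was 1, and the median was 0.11. Of the 3, Cdkn1c and Rrm2b lost the call without PC iPSC 13. Trp53 itself, on chromosome 11, stood at 170 against 140, 119 and 126, a difference of 0.37, below the chromosome median of 0.42. Ei24, the lower member, was at 79.9 against 133, 131 and 150. Stat3, also on chromosome 11, was at 27.2 against 21.5, 21.3 and 16.5 (0.43).

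Fibroblast genes off chromosome 11 had 3 of 44 called higher, or 6.82%, Tgfbi and Thbs2 among them, beside 5.86% of all genes there. Their median was 0.41, beside -0.51, 0.30 and 0.22 in control iPSC 3, control iPSC 7 and PC iPSC 13. Without control iPSC 3 the median was 0.13 and 0 were called. The 10 fibroblast feeder markers summed to 1509 RPKM in PC iPSC 5 against 685.3, 1353 and 1242, with 408.4 in ESC and 6010 in MEF, and 7 of the 10 were highest in PC iPSC 5. The part of feeder RNA in the differences of single genes was not tested. The 5 macrophage markers summed to 18.8 against 18.7, 12.2 and 15.8.

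Interferon and antigen presentation genes had 7 of 34 members off chromosome 11 called higher, or 20.6%, beside 5.86% of all genes there. Their median was 0.47, beside -0.62 in control iPSC 3 and 0.33 and 0.36 in the other lines. Without control iPSC 3 the median was 0.03 and 1 of 34 was called. Rsad2, an antiviral enzyme, stood at 7.43 RPKM against 1.08, 3.85 and 5.30, while Isg15 stood at 217 against 49.6, 211 and 215. The calls of Gbp2 and Gbp3, and of Ccl5 on chromosome 11, were lost without control iPSC 3. Immediate early and stress genes had 6 of 26 called higher, or 23.1%, 1 lower, Myc, and a median of 0.37. Called higher without control iPSC 3 were 2, and lower 2. Dusp1, a phosphatase, stood at 20.6 against 10.6, 13.3 and 12.04, whereas Jun, Ier5 and Ctgf lost their calls without control iPSC 3.

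Among the leading genes off chromosome 11 that belong to none of these lists, the higher ones were Dnajc5g, Dcdc2a, Srrm4os, Rims1, Cntn1, Kcnc4 and Tnnt1, with differences of 2.45 to 1.78. They are a cochaperone, a doublecortin-domain gene, an antisense transcript of a splicing regulator, a synaptic scaffold, a neural adhesion protein, a potassium channel and a slow-muscle troponin. None was above 3.47 RPKM in PC iPSC 5. Among the lower ones Trh, thyrotropin-releasing hormone, stood at 1.73 RPKM against 12.7, 6.98 and 12.2 (-2.58), and Stmn3, a neuronal stathmin, at 1.52 against 6.63, 6.01 and 6.42 (-2.05). Myo1a, a brush border myosin, was at 0.99 against 4.84, 4.21 and 4.85 (-2.24). Spata31d1b, of a testis family with close copies, had 10 reads against 101, 91 and 86. Tac2, Hrnr, Tlx2, Htr5a, Tex40, Kcnj14 and Clec2f made up the rest, with differences of -2.32 to -1.81. For Trh, Stmn3 and Myo1a PC iPSC 5 lay far below a narrow or moderate range of the other 3 lines.

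The remaining lists off chromosome 11 held few calls, beside 5.86% of all genes there called higher and 3.73% lower. The proteasome and mitochondrial ribosome had 0 genes called, DNA repair had 0 of 56, and nuclear oxidative phosphorylation had 1 of 73, Atp5k, lower. Atp5k lost that call with library totals as the scale, with TMM factors from the other chromosomes, on RPKM and without control iPSC 3. Heat shock genes had 2 of 35 higher, Hspa1a and Hspa4l, with a median of -0.10, and endoplasmic reticulum stress genes 1 of 32, Ddit3, with a median of 0.02. Hspa4l and Ddit3 lost their calls without control iPSC 3. The Hox list off chromosome 11 had 1 of 20 higher and 2 lower, LIF and Stat3 signalling 1 of 23 higher, mesoderm 2 of 9 higher, and endoderm 1 of 13 higher and 2 lower. Each of these 9 calls was lost when one line was left out, those of Hoxc12, Hoxd12, Dab2 and Amn without control iPSC 3, those of Hoxa7 and Foxf1 without control iPSC 7, and those of Bcl3, Tbx20 and Hnf4a without PC iPSC 13. The lowest window off chromosome 11 was a zinc finger stretch of chromosome 13 beginning at Zfp595, with a median of -0.34 and 2 of 25 genes higher.

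**Figure D5:**
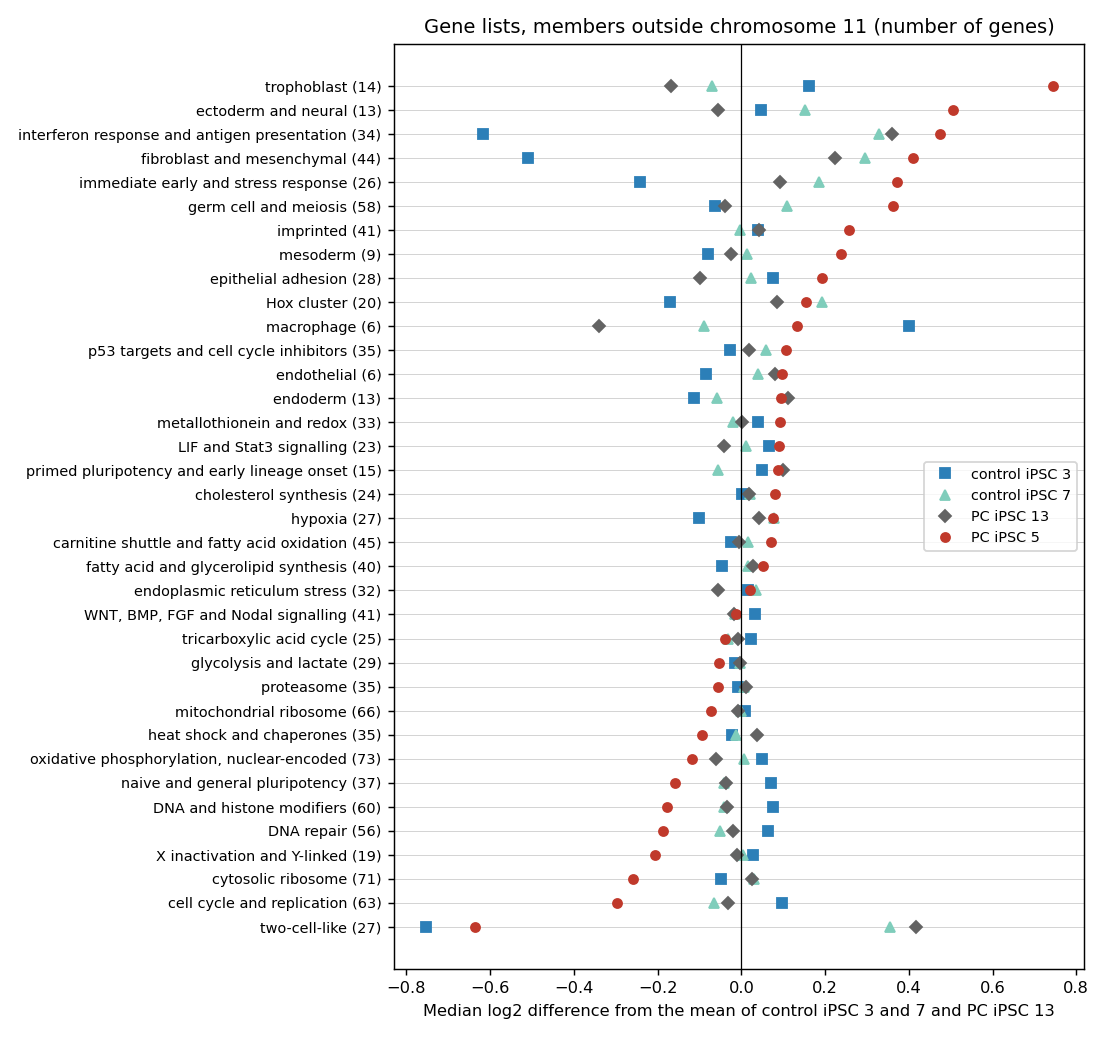
Median log2 difference from the mean of control iPSC 3, control iPSC 7 and PC iPSC 13 (horizontal axis) for each gene list (vertical axis), counting members off chromosome 11 only, with the number of genes in brackets. Trophoblast genes stand highest in PC iPSC 5, at 0.74, and 2-cell-like genes lowest, at -0.64, where control iPSC 3 is at -0.75.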

How the data were processed

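The authors sequenced 6 mouse libraries, made from total RNA with an mRNA kit per the labels' protocols. Per the file headers, the deposited series table gives whole-number counts of reads for each gene. RPKM values, in which the counts are divided by gene length and library size, were deposited beside them. The submitters' processing notes name CASAVA 1.8.2 and build mm10 without a role. Aligner, counter, annotation and strand setting were not given in the sources used here. Overlapping antisense genes therefore cannot be told apart. Per-library tables held the same counts.

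Counts were scaled with TMM in edgeR 4.0.16 (R 4.3.3) over the 13490 genes with a mean CPM of at least 1 in the 4 iPSC lines, and turned into log2 CPM with a prior count of 2. DESeq2 1.42.0 size factors were an alternative. Positions came from RefSeq on GRCm38.p6 by gene ID, for 19239 of 19330 genes, and 31 kept genes without a position were counted with the other chromosomes. Gene lists numbered 36 and covered 1436 genes, 1296 of them kept. The line, markers, lists and rules were chosen with earlier results of these data known. The naming rule took the 4 markers, the 12 higher and 12 lower genes of largest difference off chromosome 11, 8 higher and 4 lower on it, up to 4 called members per list and 8 fixed genes, passing over predicted names. Of the 196 genes followed through the alternatives, 57 were added after their values were seen. No test was run, since PC iPSC 5 is 1 library picked by this contrast, and counting floors (3 reads per library) were not needed for the genes given. Results for a few genes that the rule names are not reported here.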

Additional observations from a re-analysis of the deposited data

How the results depend on the processing

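The chromosome 11 median of 0.42 became 0.43 with DESeq2 size factors, without the filter and with a mean CPM of at least 5, 0.46 with library totals or with TMM factors from the other chromosomes, 0.45 on log2(RPKM + 0.1), and 0.40 to 0.43 when one other line was left out. Genes called higher on chromosome 11, and higher and lower elsewhere, numbered 417, 1864 and 1030 without the filter, and 64, 153 and 97 at a fold of 2. Off chromosome 11 a mean CPM of at least 5 left 384 higher and 221 lower, and RPKM 263 lower. Leaving out one other line gave 263 to 316 higher on chromosome 11, and 589 to 1046 higher and 509 to 528 lower elsewhere. Of the list medians, 10 of 356 changed sign, in lists whose main medians ran from -0.01 to 0.16. The WNT, BMP, FGF and Nodal list, at -0.01, went to 0.026 with library totals, 0.023 with TMM factors from the other chromosomes, 0.0093 without the filter, 0.0032 at a mean CPM of at least 5 and 0.022 on RPKM, and ranged from -0.049 to 0.011 when one other line was left out, the positive value being without control iPSC 3. Hox genes went to -0.077 at the stricter filter and ranged from -0.13 (without control iPSC 3) to 0.30 over the lines left out, macrophage genes from -0.054 (without PC iPSC 13) to 0.28, and endoplasmic reticulum stress genes from -0.011 (without PC iPSC 13) to 0.027. The cause was not tested. Of 171 called genes followed, 57 lost the call under some alternative. No paired analysis was possible because the groups share no replicate number. One library per line means that no difference here has a replicate check, and weakly expressed genes rest on few reads.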
